A study of Mus musculus with 3 samples.

Results

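Splanchnic mesoderm is the inner layer of the lateral plate, and the cells described here are 784 single cells of mouse embryos at embryonic day (E) 8.5 or E9.5 that carried transcripts of Foxf1 and of at least 1 of Osr1, Barx1 and Wnt4. They are called members below. A cell was a member with 2 or more Foxf1 UMIs (unique molecular identifiers, 1 per counted transcript), at least 1 UMI of Osr1, Barx1 or Wnt4, none of the endothelial gene Cdh5, the epicardial gene Wt1 or the limb and allantois gene Tbx4, and fewer than 50 UMIs per 10000 of the sarcomere genes Myl7, Tnnt2, Ttn and Myl4 together. The members were 784 of the 11547 cells of these stages and of 14777 cells in all. They numbered 256 at E8.5 and 528 at E9.5, and 577 came from control and 207 from mutant embryos.

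Every embryo carried Mesp1-Cre, which is active in early mesoderm, and the Ai9 reporter, whose red fluorescent protein (tdTomato) marks cells in which Cre has acted and their descendants. Controls were Wls fl/+ and mutants Wls fl/fl on a C57BL/6 background, so the controls too could lose 1 Wls copy in the Cre lineage. Wls is the carrier protein that brings Wnt ligands to the cell surface. Cells were sorted for the fluorescent protein to take the Mesp1-Cre lineage, and cells in which Cre has not acted keep their Wls alleles. Embryos were tagged with MULTI-seq lipid barcodes before pooling, and the barcode sample is the unit of every comparison. Whether a barcode stands for 1 embryo or more is not stated, so the p-values measure the spread between barcode samples, which may be partly technical.

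Of the 15 barcode samples of both stages, 13 held members and 9 held 20 or more, with 766 members between them. At E8.5 these were the control Bar3 with 201 members and the mutant Bar1 with 51, both from run 2. At E9.5 the controls were Bar22 with 170 and Bar23 with 106 members from run 1, Bar4 with 55 from run 2 and Bar9 with 40 from run 3, and the mutants were Bar19 with 44, Bar20 with 61 and Bar21 with 38, all from run 1. Members had a median of 20213 UMIs per cell (3691 to 62836), and the sample medians were 16096.5, 19677 and 15950.5 in the mutants Bar19, Bar20 and Bar21 against 20389.5 and 21743.5 in the run 1 controls. Sex moved with genotype: Bar19 and Bar21 were male by their Y-linked transcripts, while Bar20, Bar1 and the tested controls were mostly or wholly female. Across runs, 23 cell barcode sequences occurred more than once, 1 of them in a member.

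The forkhead factor Foxf1 is a hallmark of the splanchnic layer, where hedgehog signals from the gut endoderm keep it on. This mesoderm gives rise to the smooth muscle and connective tissue of the gut and lungs, supplies cells to the venous pole of the heart, and exchanges Wnt, BMP, FGF and retinoic acid signals with the endoderm it surrounds. Osr1 marks lateral and intermediate mesoderm and the posterior second heart field, Barx1 the mesenchyme of the future stomach, and Wnt4 encodes a secreted Wnt.

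The values that chose the members are given as a description. Foxf1 (chromosome 8, 121084386 to 121088154, GRCm38.p6) stood at 279 CPM (UMI counts of the summed cells scaled to a common total) in Bar22, 262 in Bar23, 416 in Bar4, 332 in Bar9, 292 in Bar19, 279.9 in Bar20 and 282 in Bar21 at E9.5, and at 423 in Bar1 and 379.6 in Bar3 at E8.5. Osr1 ranged from 59.5 CPM in Bar20 to 184 in Bar9, Wnt4 from 77.8 in Bar19 to 206 in Bar9, and Barx1 from 82.5 in Bar9 to 564 in Bar3. The run 3 control Bar9 thus had the highest Osr1 and Wnt4 and the lowest Barx1 of the 9 samples. Osr1 was detected in 60.3% of members, Wnt4 in 51.1% and Barx1 in 41.6%, and 47 members (5.99%) held all of them.

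At the Foxf1 threshold, the 157 members with exactly 2 Foxf1 UMIs had 67.8 CPM of Osr1 and 129 of Barx1, while 271 cells outside, with 1 Foxf1 UMI but otherwise inside the rule, had 39.7 and 49.8. The 627 members with 3 or more had 112 and 399.8. Twist1, a factor of mesenchyme, ran the other way, at 519 CPM just outside, 369.7 just inside and 157 in the members with more Foxf1. The sarcomere limit left out 10 cells, Wt1 167, Tbx4 61 and Cdh5 5.

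The label was checked with genes outside the rule against 4859 cells of the same stages that had no Foxf1 UMI, met the same limits on Cdh5, Wt1, Tbx4 and sarcomere genes, and were low in globin. The chemokine Cxcl13, the 1 label marker outside the rule, was found in 18.2% to 50% of the members of each sample and in 1.66% to 5.98% of its Foxf1-negative cells, whose median depth of 21073 UMIs was close to that of the members. Its level was 66.5, 28.5, 53.4 and 143 CPM in Bar22, Bar23, Bar4 and Bar9, 21.5, 49.9 and 13.7 in the mutants Bar19, Bar20 and Bar21, 27.8 in Bar1 and 56.0 in Bar3. Each of these was above the 1.04 to 4.59 CPM of the Foxf1-negative cells. Of 17 further splanchnic and gut mesoderm genes, 10 were higher in members in all 9 samples, and the list summed to 1222 to 1970 CPM against 558 to 996. Of the 15 of them abundant enough for the genotype test 10 were higher, against 5.52% of all such genes (5.29% were lower in all 9 samples). Among them were the homeobox gene Hlx of gut mesenchyme (23.9 to 208 CPM against 4.76 to 23.8), Hand1 of lateral mesoderm (54.3 to 286 against 10.4 to 39.8), and the GATA factor Gata4 (18.1 to 77.8 against 2.45 to 9.69). These are descriptions of cells chosen by their own counts.

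The hedgehog receptor and target Ptch1 was at 168 to 249 CPM in members and at 42.7 to 89.5 in Foxf1-negative cells, and the hedgehog effector Gli1 at 22.5 ± 5.94 against 8.68 ± 1.67 (SD, n = 9), higher in 9 of 9 samples for both genes. Of the 12 hedgehog response genes 3 were higher in members in all 9 samples, these and the hedgehog-binding inhibitor gene Hhip, and 3 were lower in all 9, the co-receptor genes Gas1, Boc and Cdon. The list summed to 526.4 to 667 CPM against 436 to 617. The hedgehog ligands lay near 0, with Dhh at 0 in every sample and the sum of the 3 ligands at no more than 0.785 CPM. Fendrr, the noncoding RNA gene that lies next to Foxf1, was at 40.4 ± 12.3 CPM (SD, n = 9) against 5.42 ± 3.54. The keratins Krt8 and Krt18 were also higher in every sample, at 452 ± 186 and 484 ± 161 CPM against 103 ± 46.1 and 102 ± 37.7. Lower in members in every sample were the paraxial genes Tcf15 (9.28 ± 6.46 against 118 ± 40.2), Meox1 (23.1 ± 14.3 against 133 ± 48.7) and Pax3 (4.70 ± 5.68 against 37.9 ± 7.14).

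**Figure D1:**
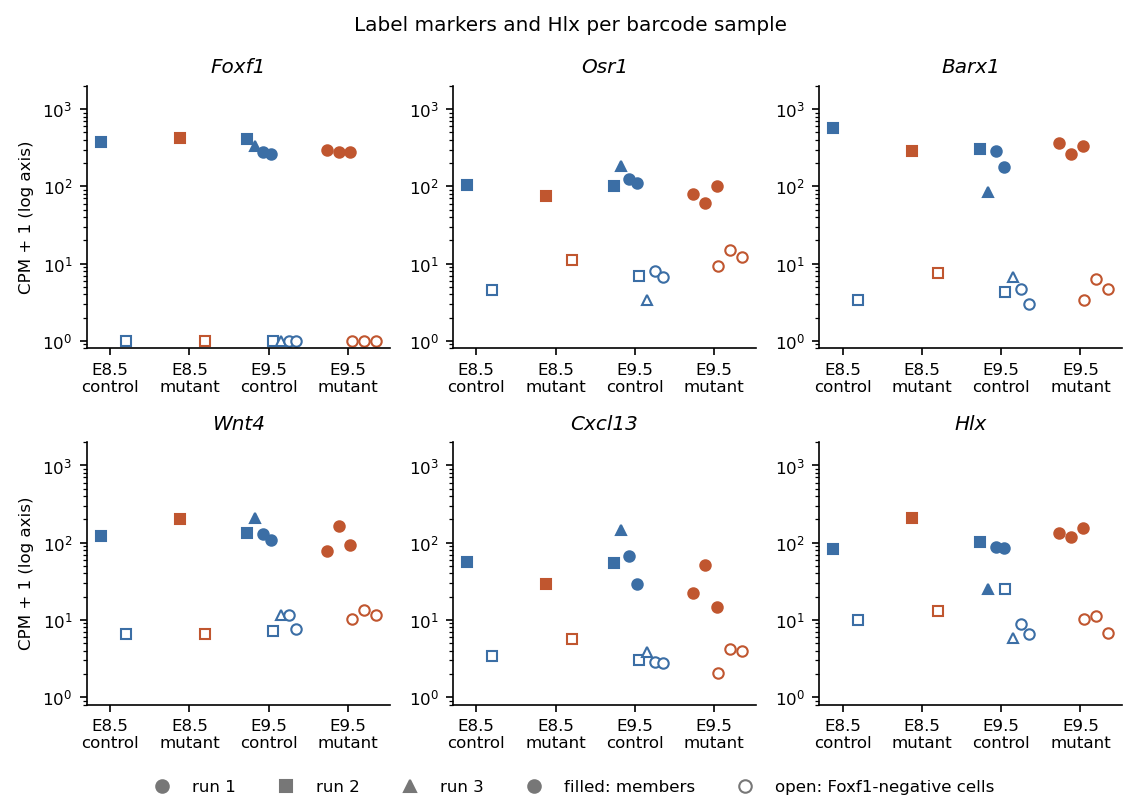
Levels of the 5 label markers and Hlx in each barcode sample, as CPM + 1 on a log axis, by stage and genotype; filled symbols are members, open symbols Foxf1-negative cells, and the symbol shape gives the sequencing run. Filled symbols lie above the open ones of the same sample throughout; Foxf1 itself is at 0 in the open symbols because the rule for those cells demands it.

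Markers of other cell types were read as summed levels over their lists. The paraxial list of 10 genes summed to 38.9 to 130 CPM in members and 323 to 650 in Foxf1-negative cells, the endothelial list of 10 to 65.8 to 196 against 119 to 268, and the endoderm and epithelium list of 9 to 3.93 to 22.9 against 8.01 to 513. In the proepicardial list of 10 genes, 5 were higher in members in all 9 samples and the sum was 538 to 1709 CPM against 154 to 412. Myl7, a cardiac light chain that the rule limits but does not bar, was at 124 to 291 CPM in members and higher than in Foxf1-negative cells in 9 of 9 samples. Blood genes, whose transcripts can enter droplets as free RNA, summed to 1223 to 6242 CPM in members and 1325 to 5006 in Foxf1-negative cells. The part of these levels in the results below was not tested except where a value is given.

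The members were not uniform. Genes were set apart by whether a cell held a UMI of Osr1, Barx1, Wnt4 or Cxcl13, and the ratios are descriptions, since the genes were picked by these values and a cell without 1 of the rule genes Osr1, Barx1 and Wnt4 could be a member only through the others. The 473 Osr1-positive members had more Aldh1a2, the enzyme that makes retinoic acid, than the 311 Osr1-negative ones, at 189.6 ± 33.9 CPM against 50.2 ± 33.7 (SD, n = 9). The forkhead genes Foxd1 (129 ± 38.3 against 38.4 ± 30.2), Foxc1 (48.8 ± 23.3 against 18.5 ± 13.2) and Foxl1 (21.0 ± 10.3 against 7.36 ± 5.34) went with it. Cxcl13 was at 64.6 ± 46.0 against 24.4 ± 12.8. Each of these 5 genes was higher on the Osr1-positive side in 9 of 9 samples. The opposite side held the homeobox genes Msx1 (24.1 ± 20.0 CPM in Osr1-positive and 171 ± 70.0 in Osr1-negative members), Msx2 (8.38 ± 7.96 and 69.7 ± 25.6) and Pitx1 (25.5 ± 32.6 and 157 ± 89.8), the Wnt antagonist gene Dkk2 (4.85 ± 6.32 and 54.8 ± 42.1), the matrix gene Postn (21.1 ± 32.6 and 145 ± 116) and smooth muscle actin Acta2 (138 ± 141 and 462 ± 182).

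Barx1 split the members differently. In the 8 samples with enough cells on both sides, Barx1-positive members had more Isl1, a factor of second heart field and foregut mesoderm (155 ± 35.9 against 54.6 ± 25.3 CPM), more of the Hox genes Hoxa4 (56.8 ± 19.9 against 12.7 ± 5.74) and Hoxa5 (94.3 ± 20.8 against 33.4 ± 11.1), more of the Wnt receptor gene Fzd5 (16.9 ± 13.9 against 2.49 ± 3.28), and more of the ligand gene Fgf9 (23.9 ± 24.2 against 5.49 ± 5.67). They had less of Wnt2 (31.3 ± 19.4 against 133 ± 46.2), Col1a1 (68.3 ± 93.1 against 342 ± 251) and Krt19 (24.1 ± 22.9 against 84.8 ± 72.9). Postn, Dkk2, Msx1 and Msx2 were low in both Osr1-positive and Barx1-positive members. Wnt4-positive members had the reverse pattern, with Msx2 at 60.5 ± 36.9 CPM against 6.17 ± 4.82, Msx1 at 146 ± 94.9 against 20.9 ± 11.5 and Bmp2 at 43.2 ± 36.4 against 10.2 ± 12.2 in Wnt4-negative members. Cxcl13-positive members had less Pitx1 (2.27 ± 3.32 against 119 ± 60.2 CPM) and more Efnb2, an ephrin ligand (99.7 ± 57.3 against 34.6 ± 18.9), over 8 samples.

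**Figure D2:**
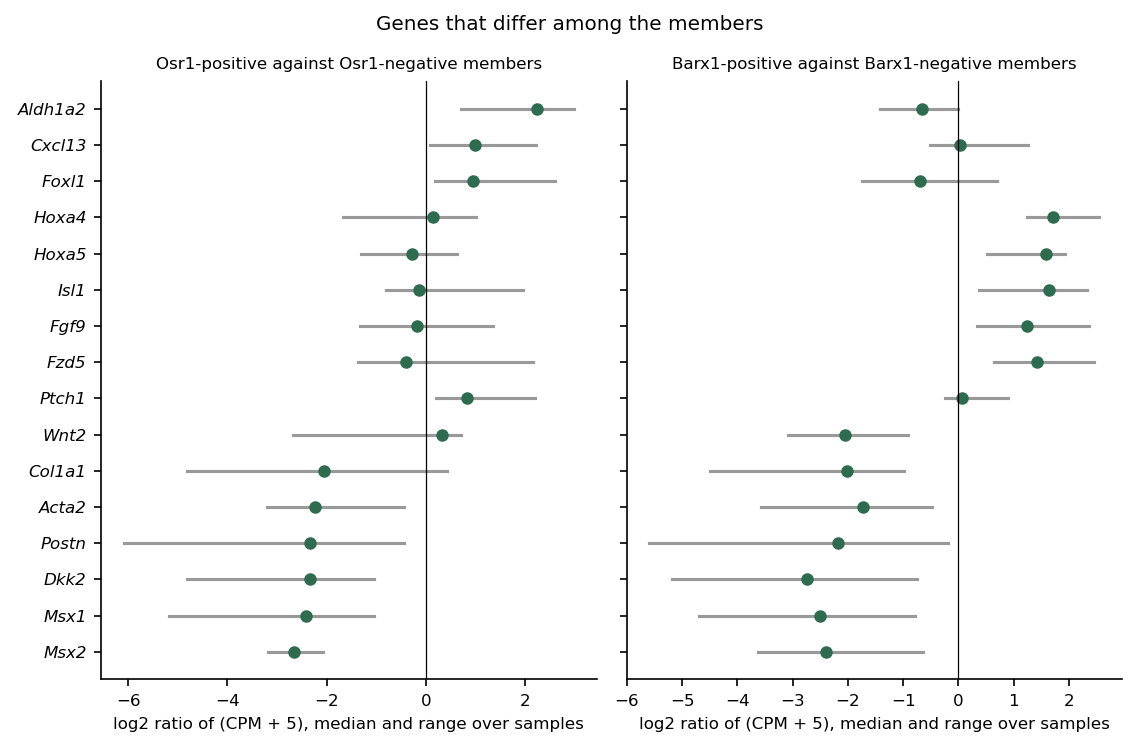
Log2 ratios of CPM with 5 added between members with and without an Osr1 UMI (left) and with and without a Barx1 UMI (right); points are medians and bars the lowest and highest ratio over 9 and 8 barcode samples. Aldh1a2 leans to the Osr1-positive side and Isl1, Hoxa4 and Hoxa5 to the Barx1-positive side, while Postn, Dkk2, Msx1 and Msx2 lie to the left in both panels.

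The share of Osr1-positive cells among members was 62.9%, 65.1%, 60% and 80% in the E9.5 controls Bar22, Bar23, Bar4 and Bar9, 45.5%, 39.3% and 68.4% in the mutants Bar19, Bar20 and Bar21, and 60.8% and 60.2% in Bar1 and Bar3. At E9.5 Bar19 and Bar20 lay below every control and Bar21 inside the control range.

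The first question the design asks of these cells is whether their share differs when Wls is lost. Shares were compared in the E9.5 samples with 20 or more cells, which left out the control Bar6 with 0 members among 6 cells. Members made up 9.14%, 6.17%, 9.05%, 0.610% and 2.90% of the cells of the E9.5 controls Bar22, Bar23, Bar4, Bar7 and Bar9. In the mutants they made up 5.09%, 8.89%, 5.21%, 2.38% and 3.21% of Bar19, Bar20, Bar21, Bar8 and Bar10, and 0 of the 57 cells of Bar5, which allows a share of up to 5.26% at a limit of 3 counts (the exact 95% interval reaches 6.27%). The means were 4.13% ± 3.02 (SD, n = 6) in mutants and 5.57% ± 3.77 (n = 5) in controls. The difference of -1.44 percentage points gave p = 0.592 in a two-sided exact permutation test within runs (120 permutations), so no difference was detectable with this spread. At E8.5 the share was 10.5% in the mutant Bar1 (51 of 487 cells, exact 95% interval 7.90% to 13.5%). In the controls it was 8.01% in Bar3 (201 of 2508, 6.98% to 9.15%) and 11.8% in Bar2 (4 of 34, 3.30% to 27.5%), so the mutant lay between the controls.

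**Figure D3:**
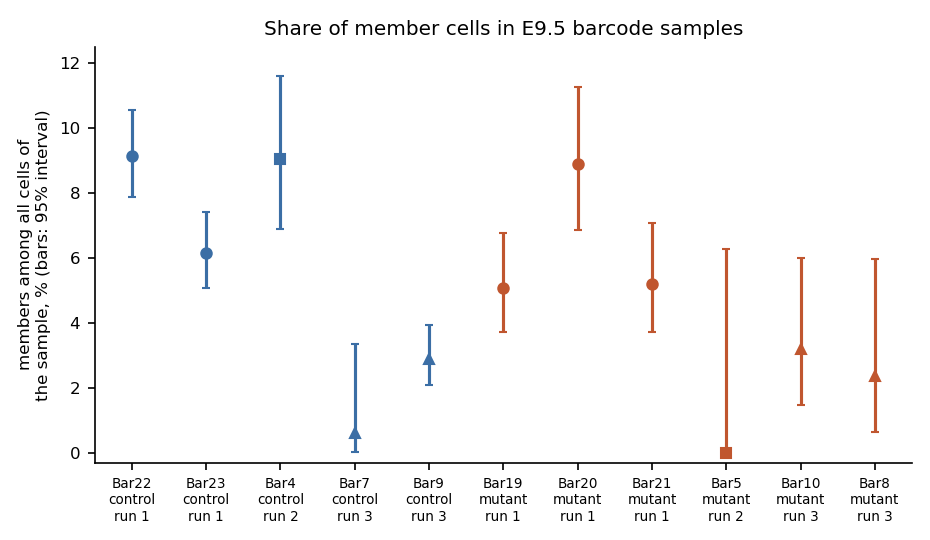
Members as a percentage of all cells in each of the 11 E9.5 barcode samples with 20 or more cells, with exact (Clopper-Pearson) 95% binomial intervals, which cover counting error only; blue is control, orange mutant, and the symbol shape gives the run. Among the samples shown, mutants run from 0 to 8.89% and controls from 0.610% to 9.14%, and the 2 groups overlap.

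Loss of the floxed gene was read first. Wls transcripts (chromosome 3, 159839650 to 159938666) were at 45.1 and 51.9 CPM in the run 1 controls Bar22 and Bar23, 54.2 in Bar4 and 34.7 in Bar9, and at 1.34, 14.5 and 6.10 in the mutants Bar19, Bar20 and Bar21. At E8.5 they were at 2.88 in the mutant Bar1 and 47.9 in the control Bar3. Every mutant lay below every control. At E9.5 the log2 fold change was -2.48 (SE 0.39, edgeR adjusted p = 0.00881). Without Bar19 the adjusted p was 0.0743 and without Bar23 0.0605. The counts come from transcript 3′ ends, and whether these lie inside the deleted stretch is not given in the sources used here.

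Comparing the mutant and control members of E9.5, edgeR called 209 of 11001 genes at an adjusted p under 0.05 (1.90%), 150 higher in mutants (1.36%) and 59 lower (0.536%). Since all 3 mutants came from run 1 and the model has a term for run, the genotype effect rests on these 3 against the run 1 controls Bar22 and Bar23, and the spread is also estimated from these 5 samples (3 residual degrees of freedom). Bar4 and Bar9, each the 1 tested E9.5 sample of its run, are fitted exactly by their run terms, so their values stand beside the test and are not part of it. Leaving out Bar19 left 3 calls and leaving out Bar20 gave 1783. Without Bar22 there were 33 and without Bar23 26. In each of these fits all 209 genes had the same sign of change as with every sample.

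Most genes of the response to low oxygen rose. Their list, like the others below, was chosen with earlier results of these data known, so counts over it are not an independent test. Of 38 genes listed, 35 were tested, 28 rose, none fell, and the 7 others had positive log2 fold changes. Their median log2 fold change was 2.02, against -0.03 over all 11001 genes. All 3 mutants lay above all 4 controls for 28 of the 35, against 10.1% of all genes tested. The number that rose was 0 without Bar19, 34 without Bar20, 13 without Bar21 and 11 without Bar22 or without Bar23, with all 35 positive each time. Over all genes tested, 3 of 10759 rose without Bar19, 805 of 10147 without Bar20 and 102 of 10823 without Bar21. The same count was 31 of 10185 without Bar22 and 22 of 10175 without Bar23. With the male share of each sample in the model, the effect rests mainly on Bar20. In that fit 12 of 35 rose, where 0.536% of all genes did, and all 35 stayed positive, at a median of 0.88. With cells thinned to 5000 UMIs, a fit that kept 1 mutant sample and assumes that it varies like the controls, 5 of 19 rose, where 0.322% of all genes did, and 18 were positive, also at a median of 0.88.

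Ddit4, an inhibitor of mTOR signalling induced by stress, was at 23.1 and 17.9 CPM in Bar22 and Bar23, 28.3 in Bar4 and 28.2 in Bar9, and at 448, 184 and 640.4 in Bar19, Bar20 and Bar21. Its log2 fold change was 4.34 (SE 0.46, edgeR adjusted p = 0.00197). The lowest mutant, Bar20, was over every control. Ndufa4l2, a mitochondrial protein that lowers respiration, was at 3.30, 5.10, 4.71 and 2.17 CPM in the same controls and at 106, 29.8 and 168 in the mutants (log2 fold change 4.53, SE 0.65, adjusted p = 0.00654). The glucose transporter gene Slc2a1 was at 153, 151 and 132 CPM in Bar22, Bar23 and Bar9 but at 319 in Bar4, and at 689, 346 and 819 in the mutants (2.02, SE 0.29, adjusted p = 0.00681). Hexokinase 2 (Hk2), which takes up the glucose into glycolysis, was at 149, 131, 137 and 128 CPM in the controls and at 711, 334 and 753 in the mutants (2.09, SE 0.29, adjusted p = 0.00596).

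Bar20, the female mutant and the 1 with the most remaining Wls RNA, was the lowest of the 3 mutants for 33 of the 35 genes, and the run 2 control Bar4 was the highest control for 19. Whether the sex or the Wls RNA of Bar20 has a part in this was not tested, and 1 sample cannot tell them apart. Regulators and signals rose: Ier3 (log2 fold change 3.52), the secreted peptide hormone gene Adm (3.61), Stc2 (3.66), the repressor Bhlhe40 (5.08), Vegfa, the main growth factor of blood vessels (1.74), and the oxygen sensor Egln1 (1.57). Among glycolytic enzymes the phosphofructokinase gene Pfkp rose by 3.44, Pgk1 by 1.14 and lactate dehydrogenase Ldha by 0.73. The calls were lost in 11 of 24 alternatives for Egln1 and Ldha, 10 of 23 for Vegfa and 10 of 22 for Stc2. For Ier3, Adm, Bhlhe40, Pfkp and Pgk1 no more than 6 alternatives lost them. Gapdh (0.44, adjusted p = 0.147), Eno1 (0.40, 0.160) and Tpi1 (0.71, 0.0642) did not pass.

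The promoters of the 3 list genes with the largest rise among those with a RefSeq entry (GRCm38.p6) are shown because hypoxia-inducible factors are known to bind a short core, ACGTG or GCGTG. Each run is the 250 bases before the start of the gene, 5′ to 3′ on the gene's strand, and capitals mark each ACGTG or GCGTG on either strand, so that CACGT and CACGC are the same words read on the other strand. Ddit4 lies at chr10:59951771-59952020 on the minus strand, Stc2 at chr11:31370062-31370311 on the minus strand and Adm at chr7:110627407-110627656 on the plus strand.
Ddit4: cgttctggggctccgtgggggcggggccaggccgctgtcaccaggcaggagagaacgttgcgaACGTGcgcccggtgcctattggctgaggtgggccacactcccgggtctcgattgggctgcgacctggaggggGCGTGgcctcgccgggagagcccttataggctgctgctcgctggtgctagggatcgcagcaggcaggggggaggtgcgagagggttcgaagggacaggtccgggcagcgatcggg
Stc2: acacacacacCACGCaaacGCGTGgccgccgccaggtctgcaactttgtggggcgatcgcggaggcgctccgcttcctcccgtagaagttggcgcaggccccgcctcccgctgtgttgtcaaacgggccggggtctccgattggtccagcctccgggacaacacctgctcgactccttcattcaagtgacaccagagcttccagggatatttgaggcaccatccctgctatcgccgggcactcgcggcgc
Adm: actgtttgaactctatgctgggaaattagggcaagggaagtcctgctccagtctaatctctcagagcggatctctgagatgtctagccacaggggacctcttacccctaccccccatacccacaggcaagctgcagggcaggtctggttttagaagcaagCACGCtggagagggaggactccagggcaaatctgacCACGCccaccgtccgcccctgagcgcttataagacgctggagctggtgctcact
Each window held 2 matches. Of the 28 genes that rose, 22 had an entry, and all 22 held a match in at least 1 entry, as did 63.0% of the 8421 tested genes with an entry. By window, 26 of their 31 entries (83.9%) held a match, and 38.6% of all 32851 promoters in the table did. A match is a description of these letters, not a binding site.

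The samples that the E9.5 genotype effect did not use gave the same direction for this list. In the E8.5 mutant Bar1, Ddit4 was at 214 CPM (187 to 244), with the exact Poisson 95% interval for counting error in brackets, against 10.3 CPM (7.56 to 13.6) in the control Bar3, and Hk2 at 351 CPM (316 to 389) against 127 CPM (117 to 138). With 1 sample a group there is no test. All 35 genes were higher in Bar1, where 46.4% of all genes tested were. In run 3, the 13 members of the mutants Bar8 and Bar10 together had Ddit4 at 282 CPM (199.6 to 387) against 28.2 in Bar9, and all 35 genes were again higher, against 46.3% of all genes. Of the 149 genes that rose at E9.5 and had a UMI, 115 were higher in Bar1 than in Bar3 and 128 higher in the run 3 mutants than in Bar9. Of the 59 that fell, 50 and 42 were lower, against 53.6% and 53.7% of all genes.

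**Figure D4:**
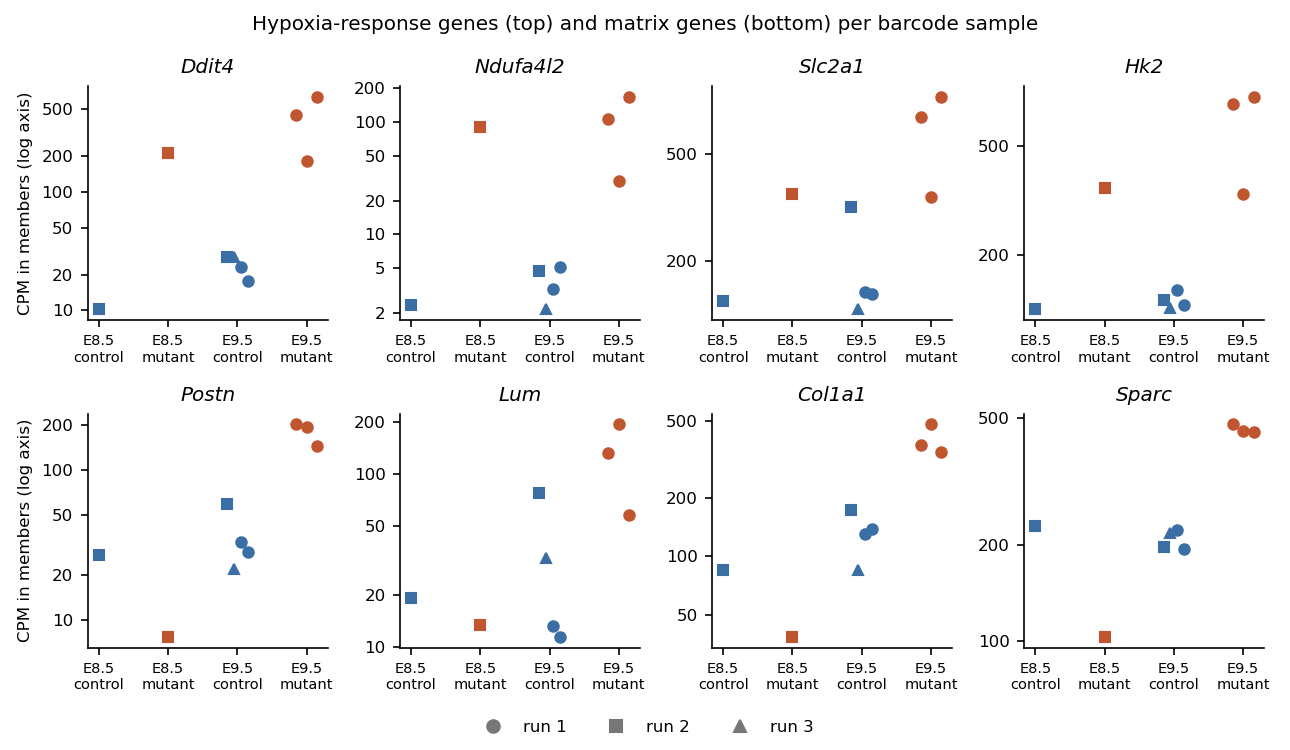
CPM in members of each barcode sample on log axes, for 4 hypoxia-response genes (top) and 4 matrix genes (bottom); blue is control, orange mutant, and the symbol shape gives the run. At E9.5 the mutants lie above the controls except that Lum in Bar21 (57.9) is below the run 2 control Bar4 (77.7), and the E8.5 mutant is above its control in the top row and below it in the bottom row.

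Some genes of the extracellular matrix changed as well. Of 29 listed, 25 were tested, 6 rose, 1 fell (Col2a1) and 18 did not pass, where 1.36% of all genes rose and 0.536% fell. The median log2 fold change of the 25 was 0.69, against -0.03 over all genes. With the male share of each sample in the model, where the effect rests mainly on Bar20, the median was 0.26. That fit had 8 rises and 1 fall, where 0.536% of all genes rose and 0.182% fell. Postn, a matrix protein of mesenchyme and valves (chromosome 3, 54359267 to 54391041), was at 33.0, 28.5, 59.7 and 21.7 CPM in Bar22, Bar23, Bar4 and Bar9 and at 203, 195 and 145 in Bar19, Bar20 and Bar21. Its log2 fold change was 2.56 (SE 0.20, edgeR adjusted p = 0.000215), and the groups did not overlap. Lum, a proteoglycan that spaces collagen fibrils (chromosome 10, 97565501 to 97572703), was at 13.2, 11.5, 77.7 and 32.6 in the controls and 131, 193 and 57.9 in the mutants (3.40, SE 0.40, adjusted p = 0.00222), with Bar4 over the lowest mutant.

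The fibrillar collagen genes Col1a1 (1.59), Col1a2 (1.40) and Col3a1 (0.83) and the collagen-binding protein gene Sparc (1.15) rose too. Sparc was at 222, 194, 197 and 217 CPM in the controls and 476, 455 and 451 in the mutants. Col1a1 was at 131, 138, 173 and 84.6 in the controls and 376, 479 and 346 in the mutants, with no overlap. Col2a1, the collagen of cartilage precursors, fell by 1.29 on the log2 scale, from 36.1 ± 15.2 CPM (SD, n = 4) to 18.5 ± 5.10 (n = 3). Bar4 lay inside the range of the mutants, and the call was lost in 12 of 23 alternatives. Basement membrane genes gave Col4a1 -0.06 and Lamb1 0.17, and neither passed. For Postn, Col1a1 and Col1a2 the call held without any 1 sample, at edgeR adjusted p of no more than 0.0489. The 6 rises became 3 without Bar19, 11 without Bar20 and 1 with 3 or more Foxf1 UMIs. Over all genes tested, 3 of 10759, 805 of 10147 and 78 of 9850 rose in these fits. With cells thinned to 5000 UMIs, which left Bar20 as the 1 mutant, the median of 13 matrix genes was 0.06. Postn (-0.22), Col3a1 (-0.94) and Sparc (-0.12) had negative values there.

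Unlike the hypoxia list, the 6 matrix genes that rose at E9.5 were all lower in the E8.5 mutant Bar1 than in Bar3. Postn was at 7.68 CPM (3.31 to 15.1) against 27.1 CPM (22.6 to 32.3), and Sparc at 103 CPM (84.2 to 124) against 228 CPM (214 to 242). In the run 3 mutants all 6 were higher than in Bar9, with Sparc at 364 CPM (269 to 481) against 217. A model of both stages together called 1 of the 25 matrix genes and 31 of the 35 hypoxia genes as higher, where 1.60% of all genes tested in it were (2.29% called in either direction). Whether the genotype effect differs between stages was not tested, as E8.5 has 1 mutant.

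Postn was also higher in Osr1-negative members, and the mutants Bar19 and Bar20 held more of those. Both kinds were fitted alone in samples with at least 10 such cells, which left Bar9 out of the Osr1-negative fit. The split was added after the data were seen and uses a gene of the rule, so its values here are a description. Its fits also count among the alternatives given for single genes. The part of these shares in the matrix result was not tested. Nor was their part in the rises of Dkk2 and Acta2 below, which were also higher in Osr1-negative members. The same holds for the values of Aldh1a2 and Foxl1 below, genes that were higher in Osr1-positive members. The log2 fold change of Postn was 2.03 in Osr1-negative and 2.82 in Osr1-positive members. Lum had 3.39 and 2.69, and Col1a1 1.14 and 1.56. All 35 hypoxia genes were positive in both.

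Calls in the signalling pathways named with this tissue are read against the 1.90% of all genes called. Lists this short would often hold no call at that share, so a count of 0 says little about them. Of 15 splanchnic and gut mesoderm genes tested none passed: Hlx stood at 0.66 (edgeR adjusted p = 0.0690), Gata6 at 0.72 (0.0642) and Foxl1 at -1.42 (0.0642), while Meis1 was at -0.03 and Hand2 at -0.08. Of the 12 hedgehog response genes none passed, where 1.90% of all genes did. Ptch1 was at 223, 235, 196 and 226 CPM in the controls and 209, 205 and 212 in the mutants, a log2 fold change of -0.13 (SE 0.14). Smo, the hedgehog signal transducer, was at -0.62 (adjusted p = 0.0904).

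Among 17 BMP pathway genes 13 were positive at a median of 0.38, where 47.7% of all genes tested were positive. Bmp2 alone passed, where 1.90% of all genes did. This ligand gene was at 14.3, 11.1, 25.1 and 8.68 CPM in Bar22, Bar23, Bar4 and Bar9 and at 61.7, 33.8 and 59.5 in Bar19, Bar20 and Bar21 (log2 fold change 1.95, SE 0.29, edgeR adjusted p = 0.00762). Bmp4 was at 0.38 (0.330), and the target genes Id1 and Msx2 at 0.53 (0.137) and 0.80 (0.317). In the FGF pathway 10 of 11 tested genes were positive (median 0.50) and 2 rose, the ligand gene Fgf9 (2.25) and the feedback inhibitor Spry1 (1.63), against 1.36% of all genes. The call was lost in 13 of 23 alternatives for Fgf9 and in 10 of 23 for Spry1. Of 13 retinoic acid genes 3 rose, against 1.36% of all genes, and 7 were positive at a median of 0.19. Without Bar19 none rose, without Bar22 or without Bar23 1 rose, and without Bar20 3 rose and 3 fell. Over all genes tested, 3 of 10759 rose without Bar19, 31 of 10185 without Bar22 and 22 of 10175 without Bar23. The fit without Bar20 had 805 of 10147 genes rise and 978 fall. The 3 genes that rose with every sample were Cyp26a1 (2.66) and Cyp26b1 (2.04), which degrade retinoic acid, and Dhrs3 (2.06), which returns its precursor to storage. Dhrs3 was at 19.0, 18.3, 22.8 and 23.9 CPM in controls and 106, 52.3 and 82.3 in mutants. Aldh1a2 was at 162, 147, 128 and 143 CPM in the controls and 57.7, 106 and 116 in the mutants (log2 fold change -0.71, edgeR adjusted p = 0.124). Every mutant lay below every control, as for 10.8% of all genes tested.

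None of the 5 Wnt ligand genes tested passed, nor any of 13 receptor genes, where 1.90% of all genes did. Wnt2 was at -0.23 and Wnt5a at -0.11. The antagonist gene Dkk2 rose (log2 fold change 1.96, edgeR adjusted p = 0.0156), from 20.6, 8.93, 22.8 and 4.34 CPM to 81.8, 59.5 and 38.1. Rspo1, whose protein amplifies Wnt signals, fell by 1.19 on the log2 scale, from 68.7, 46.4, 69.9 and 67.3 CPM to 24.1, 26.5 and 24.4. This call was lost in 12 of 24 alternatives. Of 10 canonical Wnt target genes tested 1 fell, where 0.536% of all genes did. It was the cyclin gene Ccnd1, which fell by 1.22, from 122, 121, 169.6 and 130.2 CPM to 30.8, 77.2 and 38.1, and its call was lost in 13 of 24 alternatives. The feedback genes Axin2 (-0.20) and Lef1 (-0.44) had adjusted p of 0.767 and 0.541.

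No S phase gene of 18 and no G2 and M phase gene of 18 passed in edgeR, where 1.90% of all genes did. Of the S phase genes 1 of 18 was positive (median log2 fold change -0.32), and of the G2 and M phase genes 6 of 18 (median -0.11), where 47.7% of all genes were. The cell cycle brakes Btg2 (log2 fold change 1.77), Ccng2 (1.42) and Cdkn1b (1.24), 3 of 7 tested, rose, and of 17 stress genes 3 rose, against 1.36% of all genes. The calls were lost in 13 of 23 alternatives for Btg2 and Cdkn1b and in 15 of 23 for Ddit3. The stress genes were Ddit3 of the unfolded protein response (2.37), the metallothionein gene Mt1 (2.06) and Fos (2.46). Fos was at 208 CPM in the control Bar9, above all mutants (40.2 to 59.5), while the run 1 controls were at 12.4 and 4.68. The keratins Krt19 (1.78) and Krt8 (0.86) and the actin gene Acta2 (1.26) rose, and Krt18 was at 0.69 (edgeR adjusted p = 0.0642). Acta2 was at 539, 303 and 539.8 CPM in the mutants and at 135 to 243 in the controls.

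Among the 12 largest rises were also genes outside these lists. Nxph4, a secreted neurexin ligand, had 0 counts in all 4 controls and 21.5, 2.41 and 44.2 CPM in the mutants, at least 58.4-fold higher on a floor of 3 counts over the control group. Without Bar21 this bound was 30.7-fold, and Bar20 alone gave 6.21-fold. Rgcc, a cell cycle regulator, was at 0.824 to 6.28 CPM in the controls and 9.39, 18.5 and 13.7 in the mutants (log2 fold change 3.98). Ppp1r3c, which directs a phosphatase to glycogen, had 3.65 and the predicted gene Gm15283 3.85. The calls were lost in 12 of 22 alternatives for Gm15283, 11 of 22 for Ppp1r3c, 10 of 22 for Nxph4 and 4 of 22 for Rgcc. The Y-linked gene Eif2s3y (5.18) followed the sex of Bar19 and Bar21. The ribosomal protein pseudogenes Rps15a-ps8 (5.33) and Rps13-ps1 (4.66) were high in Bar19, Bar21, Bar4, Bar1 and Bar3 and low in Bar20, Bar22, Bar23 and Bar9, in either genotype. Reads of such copies can be split among near-identical genes, so their values are uncertain.

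Of the 12 largest falls, Nkx6-1, a homeobox gene, went from 19.0, 9.36, 15.7 and 73.8 CPM to 1.34, 1.61 and 0 (log2 fold change -3.59). The posterior Hox gene Hoxc10 went from 29.7, 10.6, 73.8 and 6.51 to 2.68, 0.804 and 6.10 (-2.93). The tight junction gene Cldn11 (-1.56), the angiogenesis inhibitor-related gene Vash2 (-1.67), the paraxial factor Tcf15 (-1.74), Rasl11a (-1.74), Dqx1 (-2.05), H2-T24 (-2.74), Exoc3l (-1.49) and the predicted gene Gm47551 (-1.67) also fell. The calls were lost in 19 of 23 alternatives for Tcf15, 18 of 23 for Gm47551, 18 of 22 for Cldn11 and 14 of 23 for Hoxc10. Blood genes Hbb-bh1 (-0.99), Hba-x (-0.95) and Hba-a1 (-1.01) fell in members, but without the deepest 5% of cells they stood at 0.092, 0.19 and 0.13, and none passed. In addition, Hbb-bh1 was at 112 CPM in the control Bar4, below every mutant (309 to 456). In Foxf1-negative cells, which were selected for low globin, their log2 fold changes were 0.06, 0.10 and 0.08, and none passed.

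Whether the genotype effect differs between members and Foxf1-negative cells of the same 7 E9.5 samples was tested next. The Foxf1-negative cells are a mixture of cell types, and the part of a change in that mixture in the difference was not tested. This difference passed in edgeR for 102 of 13165 genes (0.775%), 72 with the more positive effect in members (0.547%) and 30 with the more negative (0.228%). In the Foxf1-negative cells alone 1052 of 15837 genes were called (6.64%), 3.50% of them higher and 3.14% lower in mutants as shares of all genes tested. The difference comes from 1 joint fit of both kinds of cell, with a term for each barcode sample in place of the run term, so Bar4 and Bar9 enter it. The effects in members and in Foxf1-negative cells come from separate fits that rest on run 1, so their subtraction does not give the printed difference. The count of 102 became 39 without Bar22, 40 without Bar19, 47 without Bar23 and 418 without Bar20.

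For the hypoxia list the difference passed for 1 of 37 genes, where 0.775% of all genes did. It was positive, toward members, for 32 of the 37 at a median of 0.31, against 48.8% and -0.01 over all genes. The 1 gene was Hk2, with an effect of 2.09 in members and 1.18 in Foxf1-negative cells (difference in the joint fit 0.87, SE 0.20, edgeR adjusted p = 0.0404). This call was lost in 8 of 11 alternatives, at an adjusted p of up to 0.208. Ddit4 had 4.34 in members and 3.22 in Foxf1-negative cells, where it was at 20.1 to 26.2 CPM in controls and 173 to 237 in mutants. The joint fit's difference of 0.96 (SE 0.30) had an edgeR adjusted p of 0.174. For Wls the difference was -0.68 (SE 0.40, edgeR adjusted p = 0.554).

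Matrix genes gave 8 of 27 with a more positive effect in members and none with a more negative one. Lum rose in members (3.40) and fell in Foxf1-negative cells (-1.50, SE 0.09, edgeR adjusted p = 0.000698), and the joint fit gave a difference of 3.73 (SE 0.52, adjusted p = 0.00131). In those cells it was at 65.1, 62.6, 47.4 and 47.6 CPM in Bar22, Bar23, Bar4 and Bar9 and at 25.4, 20.5 and 23.6 in Bar19, Bar20 and Bar21. Every mutant lay below every control there, while in members Bar4 lay over the lowest mutant. Postn differed by 2.01 in the joint fit (SE 0.33, edgeR adjusted p = 0.00621), with separate effects of 2.56 in members and 0.28 in Foxf1-negative cells. The others were Col3a1 (difference 1.41), Col1a2 (1.34), Col5a1 (1.00), Col5a2 (1.00), Col1a1 (0.95) and Sparc (0.92). The call for Col5a1 was lost in 7 of 11 alternatives, that for Col1a1 in 3 and that for Postn in 2, while Lum and Col3a1 kept theirs in all 11. Over the 11 alternatives the difference ran from 0.62 to 2.50 for Postn and from 0.31 to 1.18 for Col1a1. Without any 1 sample the lowest values were 1.65 and 0.70, so the smaller ones came from other settings. Bmp2 (1.42), Acta2 (0.76) and Dusp6, a feedback phosphatase of FGF signalling (1.19), differed in the same direction.

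Other genes with the more positive effect in members were Dab1 (3.12), the neurotrophin receptor gene Ntrk2 (2.39), the calcium-binding protein gene S100a6 (2.30), Six2 (1.86), Maml2 (1.78) and the arginine transporter gene Slc7a1 (1.66). Of these, S100a6 (2.05) and Slc7a1 (1.74) rose in the members alone. Tbx5, a factor of posterior second heart field and forelimb, was higher in mutant Foxf1-negative cells (0.99, edgeR adjusted p = 0.00495) and at -0.97 in members (adjusted p = 0.0782), and the joint fit gave a difference of -2.07 (SE 0.26, adjusted p = 0.000404). In members it was at 50.3, 51.0, 31.4 and 69.5 CPM in controls and 17.4, 36.2 and 18.3 in mutants. Crabp2, a retinoic acid carrier (-1.20), Nkx6-1 (-4.70), Dqx1 (-1.69), Rasl11a (-1.18), Itga2b (-4.83), Nrk (-2.47) and Car4 (-1.80) also had the more negative effect in members. The calls for Maml2 and Rasl11a were lost in 8 of 11 alternatives and those for Ntrk2, Dqx1 and Nrk in 6 of 11. Without Bar20, Nrk was at -0.58 and Car4 at -1.14 and neither passed, and without Bar21 Itga2b was at -8.66 and did not pass. Ttr (-11.26), Apoa1 (-6.27) and Rbp4 (-4.43), genes of visceral endoderm and liver, rest on the Foxf1-negative cells of Bar20, where they reached 427, 198 and 645 CPM against no more than 8.21, 4.13 and 12.1 in the other 6 E9.5 samples. Ttr had 0 counts in all mutant members, so its fitted difference depends on the prior count and is no measure of size.

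**Figure D5:**
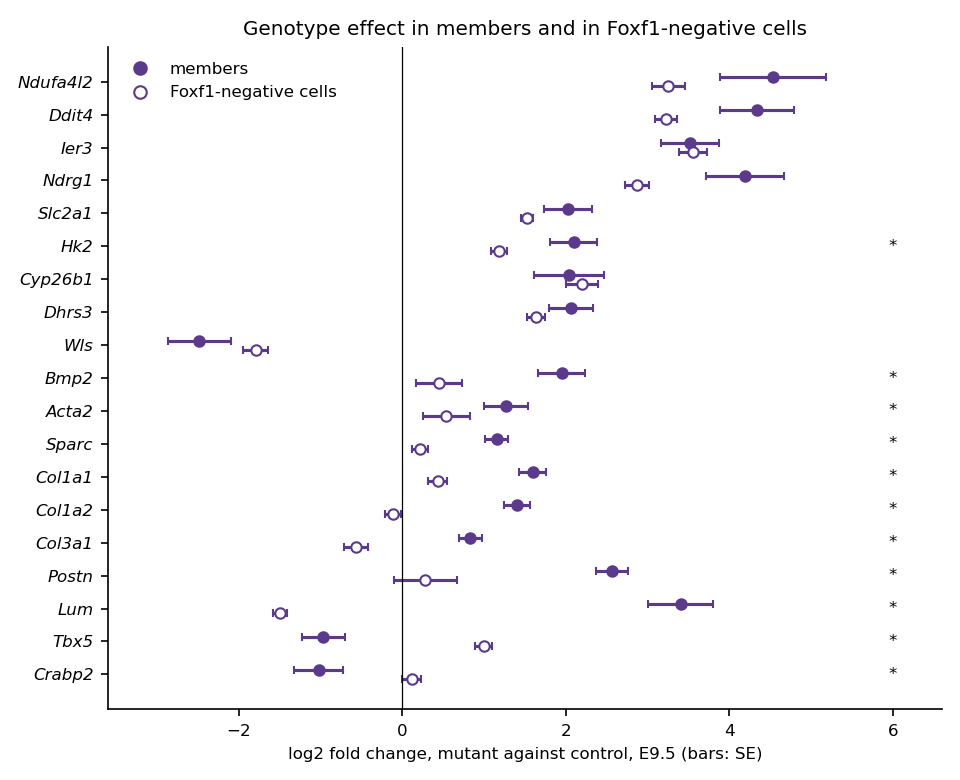
Log2 fold change of mutant against control at E9.5 (bars are SE) in members (filled) and in Foxf1-negative cells (open) for 19 genes; an asterisk marks genes whose difference between the cell groups passed at an edgeR adjusted p under 0.05. Ddit4 and Ier3 lie to the right in both cell groups, whereas Lum lies to the right in members (3.40) and to the left in Foxf1-negative cells (-1.50).

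With run and genotype in the model the stage comparison rests on 1 E9.5 sample, the control Bar4, against Bar1 and Bar3 of the same run, and assumes that Bar4 varies like the other samples. A difference of stage and a difference of Bar4 from other samples cannot be told apart in it. Of 11072 genes 3 passed in edgeR (0.0271%), all higher in Bar4, and 367 had an unadjusted p under 0.05. Cdx2, a factor of the posterior embryo (log2 fold change 4.36, SE 0.61), was at 41.6 CPM in Bar4, at 0 to 11.3 in the other 6 E9.5 samples, at 0 in Bar1 and 2.35 in Bar3. The 4 members of the E8.5 control Bar2, too few to enter the fit, had 101 CPM (48.5 to 186), above Bar4, and the call for Cdx2 was lost in 7 of 13 alternatives. The other calls were the ribosomal protein gene Rpl29 (2.19) and the ribosomal pseudogene Gm8730 (8.18). Reads of such genes can be split among near-identical copies, so their values are uncertain. Gm8730 was at 0.960 and 1.5 CPM in Bar1 and Bar3 but at 404 (289 to 551) in Bar2. DESeq2 called 2 genes, a fit of controls alone 54, and fits without Bar1, Bar3 or Bar20 called 8, 11 and 5.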

How the data were processed

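Single-cell RNA was sequenced in 3 runs, and the deposited matrices hold raw UMI counts per gene and cell, made by the authors. The submitters' processing notes name kallisto, bustools 0.46.1, Cell Ranger and GRCm38. Cells were assigned to barcode samples by the deposited calls. Doublets received no further filter, and 51923 genes were read. The members and gene lists were chosen with earlier results of these data known.

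Raw counts of the members were summed per barcode sample, for samples with 20 or more members. Sums were tested with edgeR 4.0.16 (filterByExpr, TMM, quasi-likelihood test, two-sided, Benjamini-Hochberg adjusted p under 0.05) in R 4.3.3, with a term for run. Of the 11 genes of the rule 8 were in the genotype fit, and no test of them is reported. SE is the absolute log2 fold change over the root of F. CPM scales the UMIs of the summed cells to a common total, and 5 CPM were added in ratios between cell subsets. Summed depth was 460733 to 4679105 UMIs per tested sample. Named genes were list members chosen by role, the 12 largest changes each way by genotype, and the 8 largest each way for the difference of effects and the stage comparison. Of these, 1 of the largest falls is not reported here. Alternatives used DESeq2 1.42.0 and limma 3.58.1, other thresholds and left-out samples. Scripts were tested on simulated data.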

Additional observations from a re-analysis of the deposited data

Results flagged for a closer look

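In 9 of 103 groups of E9.5 controls examined, 1 sample lay far from the other 3, and chance does this in about 1 in 20 groups. The run 2 control Bar4 was the highest for Slc2a1 (319 CPM), Ldha (2894 CPM), Bnip3 (44.0 CPM), Rps15a-ps8 (198 CPM) and Rps13-ps1 (218 CPM), and the lowest for Gli1 (20.4 CPM). The run 3 control Bar9 was the highest for Fos (208 CPM) and Nkx6-1 (73.8 CPM), and Bar23 was the lowest for Rspo1 (46.4 CPM).

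For 29 genes named in the text the genotype effect differed between members and Foxf1-negative cells by edgeR's test of the difference. The log2 difference was positive for the matrix genes Lum (3.73), Postn (2.01), Col3a1 (1.41), Col1a2 (1.34), Col5a1 (1.00), Col5a2 (1.00), Col1a1 (0.95) and Sparc (0.92). It was also positive for Dab1 (3.12), Ntrk2 (2.39), S100a6 (2.30), Six2 (1.86), Maml2 (1.78), Slc7a1 (1.66), Bmp2 (1.42), Dusp6 (1.19), Hk2 (0.87) and Acta2 (0.76). It was negative for Ttr (-11.26, a fitted value over mutant members with 0 counts), Apoa1 (-6.27), Itga2b (-4.83), Nkx6-1 (-4.70), Rbp4 (-4.43), Nrk (-2.47), Tbx5 (-2.07), Car4 (-1.80), Dqx1 (-1.69), Crabp2 (-1.20) and Rasl11a (-1.18).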

How the results depend on the processing

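The 209 genotype calls at E9.5 became 925 with no low-count filter, 122 with DESeq2, 121 with at least 40 members per sample, 407 with 1 or more and 109 with 3 or more Foxf1 UMIs, 137 without the deepest 5% of cells, 404 without the run term and 79 with the male share as covariate. They became 17 with cells thinned to 5000 UMIs, a fit that kept 1 mutant sample and 3728 genes, and 14 in members without an Osr1 UMI, an alternative added after the data were seen. Leaving out 1 sample gave 3 to 1783. The 3 stage calls became 54 in controls alone and 59 with no low-count filter, and 2 to 11 without 1 sample. The 102 calls of a different effect became 314 with no low-count filter, 62 in run 1 alone and 61 against all other cells, and 39 to 418 without 1 sample. The difference in member share ran from -2.68 to -0.55 percentage points without 1 sample. Thinning reversed Postn (-0.22), Col3a1 (-0.94), Sparc (-0.12), Acta2 (-0.18), Hba-x (0.38), Hba-a1 (0.28) and Rps13-ps1 (-2.84). Leaving out the deepest cells reversed Hbb-bh1 (0.092), Hba-x (0.19) and Hba-a1 (0.13), and members without an Osr1 UMI gave Hba-x 0.28 and Hba-a1 0.24. The male covariate reversed Rps15a-ps8 (-0.96) and Rps13-ps1 (-0.82). The cause was not tested. For single genes, 1247 alternative values kept direction and side of the threshold, 629 lost the call and 14 reversed. In the genotype fits not all were separate: at least 10 members per sample repeated the main fit, and at least 40 the fit without Bar21. Bar4 and Bar9 do not enter the genotype effect, so the genotype fits without them could change it little. No paired analysis was possible because the barcode samples carry no shared replicate numbers. Not run for lack of samples were the genotype fits without cells holding Epcam, Pecam1 or Kdr and in runs 2 and 3 alone, and the stage fits in run 2 alone and without Bar4.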
